A study of Mus musculus with 2 samples.

Results

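The genes of MHC class I antigen presentation, 10 of the 17232 gene rows of the table, were taken by name: H2-K1, H2-D1, B2m, Tap1, Tap2, Tapbp, Psmb8, Psmb9, Psmb10 and Nlrc5. All 10 were found, and they were followed as unique molecular identifiers (UMIs, each standing for 1 captured mRNA molecule) in every immune cell class of 2 single-cell libraries. The rule that chose them is a list of names and uses no threshold on a measured value.

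The cells were tumor-infiltrating immune cells (TIIs) from B16-OVA tumors, a mouse melanoma line that expresses the model antigen ovalbumin. Tumors were taken at day 14 from Maoa WT mice or from Maoa KO mice, whose alleles are a hypomorphic mutation of the monoamine oxidase A gene in the whole animal. For each genotype 10 tumors were pooled, DAPI-CD45.2+ cells were sorted, 10000 cells were loaded on the 10X Chromium platform, and 1 library was made with the 3' version 2 kit. The pool is therefore the only sample of its genotype, no value below has a replicate, and no test was possible. Intervals of the count, share or ratio of a gene are exact 95% intervals. Those of a median over the members are not exact. All cover counting error only.

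Levels are given as CPM, the UMIs of a gene per 1000000 UMIs of the cells summed. Maoa itself had 7 UMIs in 6 of 2392 cells labelled WT, or 0.243 CPM (0.0977 to 0.501), and 15 UMIs in 14 of 2630 cells labelled KO, or 0.633 CPM (0.354 to 1.04). The targeted gene thus did not bear out the labels, and since the mutation is hypomorphic its 3' reads may check nothing. The libraries are called by their labels below. The median cell held 9888 UMIs in the library labelled WT and 6946 in the library labelled KO, and 13 cell barcodes occurred in both.

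Class I molecules show peptides from inside the cell to CD8 T cells. The proteasome cuts proteins into peptides, and the immunoproteasome subunits Psmb8, Psmb9 and Psmb10 replace the constitutive subunits Psmb5, Psmb6 and Psmb7 in cells that have met interferon. The transporter Tap1-Tap2 carries the peptides into the endoplasmic reticulum, tapasin (Tapbp) holds the empty class I molecule at the transporter, and the heavy chains H2-K1 and H2-D1 pair with β2-microglobulin (B2m). The transactivator Nlrc5 acts on promoters of this gene set, together with factors that bind the X and Y boxes. CD45.2+ cells of all kinds make class I, so none of the classes should lack these genes.

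Of the genes, 7 lie in a stretch of mouse chromosome 17 around the MHC locus (GRCm38, GENCODE M21). Tapbp (33915899 to 33929292, plus strand) and H2-K1 (33996017 to 34000347, minus strand) come first. Psmb9 (34181987 to 34187764, minus strand), Tap1 (34187553 to 34197225, plus strand), Psmb8 (34197721 to 34201454, plus strand) and Tap2 (34203527 to 34216321, plus strand) follow one another, and H2-D1 (35262730 to 35267499, plus strand) is the last. B2m is on chromosome 2 (122147686 to 122153083, plus strand), and Psmb10 (105935735 to 105938444, minus strand) and Nlrc5 (94434356 to 94527272, plus strand) are on chromosome 8. In none of the 10 did any 90-base window of the last 500 bases of the transcript, where the 3' reads fall, occur in a transcript of another gene.

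RefSeq promoter windows of 250 bases before to 50 bases after the start (GRCm38.p6) were used for 8 of the 10 members, all but Tap2 and Nlrc5. They were searched on both strands for TGACG (the core of the X2 box), CCAAT (the Y box, ATTGG on the other strand) and GGGGATTCC (a kB site). GAAANNGAA (a form of interferon regulatory factor site) and TTCNNNGAA (a gamma-activated sequence) were searched in the same way. Stretches of 130 bases are shown for the 2 heavy chains and B2m because among the 8 these were the members in which the X2 and Y matches started exactly 25 bases apart, an arrangement found in 63 of 32851 promoter windows (0.192%). They are written 5' to 3' on the gene's strand and lined up on the X2 match, with matches to any of the motifs in capitals.
H2-K1 (chr17:34000349-34000478, minus strand): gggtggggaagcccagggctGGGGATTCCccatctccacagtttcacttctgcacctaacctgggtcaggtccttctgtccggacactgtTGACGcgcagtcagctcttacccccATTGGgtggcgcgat
H2-D1 (chr17:35262903-35263032, plus strand): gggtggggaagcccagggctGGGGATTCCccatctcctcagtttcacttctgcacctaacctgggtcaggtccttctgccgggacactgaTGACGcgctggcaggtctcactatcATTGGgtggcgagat
B2m (chr2:122147519-122147648, plus strand): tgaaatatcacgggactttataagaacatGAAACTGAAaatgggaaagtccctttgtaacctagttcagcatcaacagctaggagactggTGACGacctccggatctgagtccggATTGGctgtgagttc

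The heavy chain stretches were identical at 118 of 130 bases (90.8%), and each carried the kB match 70 bases before the X2 match. The kB letters occurred in 0.25% of all windows. B2m matched H2-K1 at 49 of 130 bases (37.7%), kept the X2-Y spacing, had no kB match in the window and was the only one of the 8 with a GAAANNGAA match, which 8.56% of all windows held. TGACG alone was in 20.8% of windows and CCAAT alone in 37.4%. The windows of Tap1 and Psmb9, which are transcribed away from each other, shared 275 bases and so held the same TGACG and CCAAT letters at another spacing, and Psmb8 was the only one of the 8 with a TTCNNNGAA match, found in 8.3% of all windows. Tapbp held CCAAT alone, and no searched motif was in the Psmb10 window. A match describes letters and not a bound site.

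The cells fell into 15 clusters that were named from marker genes. T cells were 924 cells in the library labelled WT and 873 in the library labelled KO, and TAM/Mono cells (tumor-associated macrophages and monocytes) were 969 and 832. NK cells were 188 and 267, dendritic cells (DCs) 140 and 321, and plasmacytoid DCs (pDCs) 48 and 70. A cluster of 359 cells led by Klra7, Acp5 and Ccl5, cluster 7, detected most T cell markers but had an NK cell marker and no T cell marker among its leading genes, so it was left unnamed. B cells numbered only 7 and 24 and were not compared. None of the 10 members was among the 599 variable genes that formed the clusters.

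Each class had its own composition of the pathway. The heavy chain H2-K1 had its highest level in NK cells in both libraries, B2m and Tapbp had theirs in pDCs, and the transporter gene Tap1 and the immunoproteasome genes Psmb8 and Psmb9 theirs in DCs. TAM/Mono cells combined a B2m level next to that of pDCs with the lowest levels of H2-K1, Tap2 and Psmb9 in both libraries. The members did not share 1 order of classes, and none differed by more than 2.66-fold between its highest and lowest class except Nlrc5, whose counts were small.

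H2-K1 had 2122 CPM (2039 to 2208) in NK cells labelled WT and 2246 (2163 to 2331) in those labelled KO. In TAM/Mono cells it had 1088 (1069 to 1107) and 914 (894 to 934). pDCs stood next to NK cells with 2048 and 1607 CPM, followed by T cells with 1497 and 1578 and DCs with 1366 and 1012. The order of the 5 classes was the same in both libraries, with overlapping intervals between NK cells and pDCs in the library labelled WT and between pDCs and T cells in the library labelled KO.

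H2-D1, the other classical heavy chain of these mice, was high in pDCs (4217 and 3610 CPM) and NK cells (3781 and 3817). It lay between 2377 and 3063 CPM in T cells, TAM/Mono cells and DCs of either library. pDCs came first in the library labelled WT, with an interval above that of NK cells, and the intervals of these classes overlapped in the library labelled KO.

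B2m, the light chain of all class I molecules, had 7178 CPM (6908 to 7456) and 5871 (5662 to 6086) in pDCs. TAM/Mono cells had 6270 (6225 to 6315) and 5484 (5436 to 5533), above NK cells with 5473 and 5158. T cells (4684 and 4450.1 CPM) and DCs (4844 and 3894 CPM) were lowest, and no neighbouring intervals overlapped in either library. Of all 5022 cells, 2 had no B2m UMI.

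The peptide transporter genes differed from the heavy chains. Tap1 had 336 CPM (312 to 362) and 287 (271 to 303) in DCs, and the next class, T cells, had 194 (186 to 202) and 183 (174 to 193). NK cells were lowest with 150.3 and 126 CPM, with intervals that overlapped those of pDCs. Tap2 had 182 (165 to 202) and 132 (121 to 143) in DCs against 85.5 (80.3 to 90.9) and 80.3 (74.5 to 86.4) in TAM/Mono cells. In the library labelled KO the Tap2 levels of DCs and T cells (136 CPM) were not separated.

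Tapbp was highest in pDCs, with 509 CPM (439 to 587) and 459.7 (402 to 523). DCs followed with 329 (305 to 355) and 272 (257 to 288), and T cells were lowest with 192 and 197. pDCs thus had the highest Tapbp and B2m but only 156 and 150.6 CPM of Tap1.

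Of the immunoproteasome genes, Psmb8 and Psmb9 were highest in DCs of both libraries. Psmb8 had 1564 CPM (1511 to 1618) and 1199 (1168 to 1232) in DCs against 715 (699.7 to 730.1) and 742 (725 to 760.4) in TAM/Mono cells. Psmb9 had 576 (544 to 609) and 404 (385 to 423) in DCs, 388 and 318 in T cells, and 236 and 207 in TAM/Mono cells. Psmb10 varied least between classes. It was highest in DCs of the library labelled WT with 307 CPM (284 to 332), where NK cells had 267 (238 to 298), and lowest in DCs of the library labelled KO with 199.5 (187 to 213).

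Nlrc5, the transactivator, was sparse everywhere. It had 18.9 CPM (16.6 to 21.5) and 21.2 (18.0 to 24.8) in T cells, 14.3 and 11.6 in TAM/Mono cells and 18.0 and 18.9 in DCs. In pDCs it had 1 UMI in the library labelled WT and 9 in the library labelled KO. The intervals of neighbouring classes overlapped throughout. In all, 7 of the 10 members had their highest class level in the same class in both libraries. Without Nlrc5, whose 21.2 CPM in T cells labelled KO were matched in NK cells, there were 6.

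**Figure D1:**
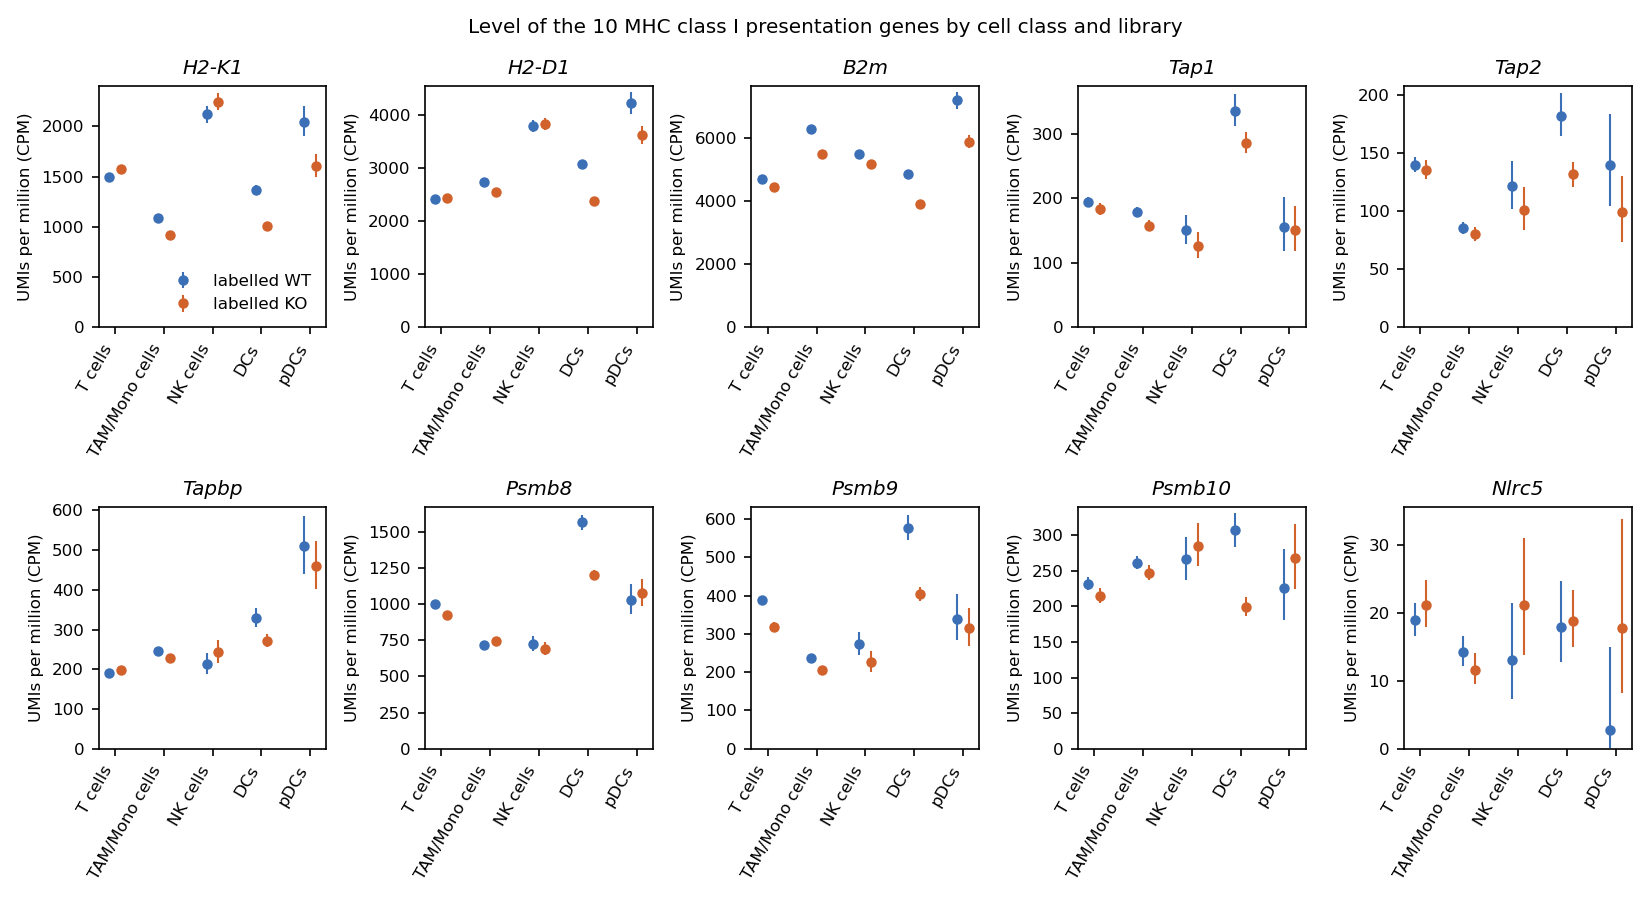
Level of each member in CPM (linear axes from 0) in 5 immune classes, with 1 point for each library and bars for the exact 95% Poisson interval. DCs stand highest for Tap1 (336 and 287 CPM) and Psmb8 (1564 and 1199), pDCs for B2m and Tapbp, and NK cells for H2-K1.

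The mix of immunoproteasome and constitutive subunits was read within each pair, since both subunits of a pair occupy the same catalytic site. Psmb9 made up 66.1% (63.9 to 68.3) of Psmb9 and Psmb6 UMIs in DCs of the library labelled WT and 56.5% (54.7 to 58.2) in those of the library labelled KO. In TAM/Mono cells it made up 32.3% in both libraries (31.4 to 33.3 and 31.1 to 33.5). T cells had 55.7% and 53.3%, NK cells 53.2% and 49.2%, and pDCs 50% and 52.1%. Psmb8 made up 87.1% (85.9 to 88.1) and 84.2% (83.3 to 85.1) of its pair with Psmb5 in DCs and 73.7% and 76.0% in TAM/Mono cells. Psmb10 was highest within its pair with Psmb7 in NK cells, at 65.3% (60.8 to 69.6) and 69.9% (65.6 to 73.9), and DCs had 59.3% (56.3 to 62.2) and 52.5% (50.1 to 54.9). All 3 shares were lower in DCs of the library labelled KO, with intervals that did not overlap.

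**Figure D2:**
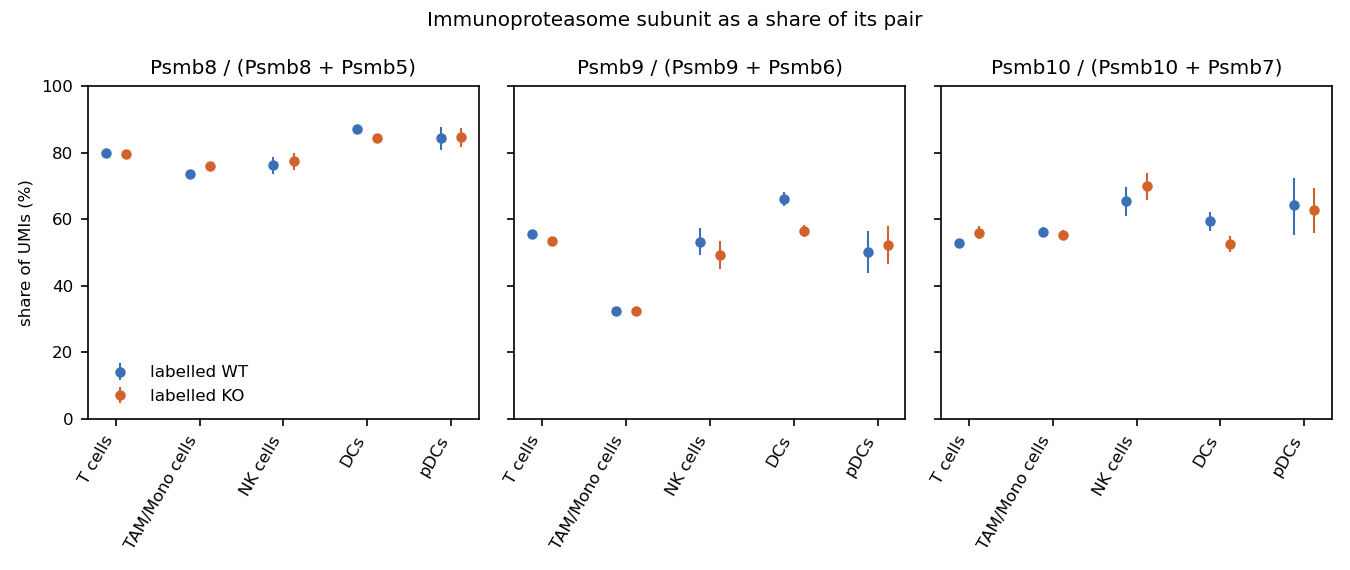
Share of UMIs (%, axis from 0 to 100) of each immunoproteasome subunit within its pair with the constitutive subunit, by class and library, with exact 95% binomial intervals. For Psmb9 the TAM/Mono cells sit at 32.3% in both libraries, and DCs at 66.1% and 56.5%.

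The members also differed between clusters of 1 class. The share of all genes with their highest or lowest level in a given cluster was not computed. Among the 4 T cell clusters the regulatory-like cluster 9, led by Foxp3, Izumo1r and Cd4, had the highest level of all 10 members in the library labelled WT and of 7 in the library labelled KO. Its interval overlapped that of another cluster for Psmb8, Psmb10 and Nlrc5 in the library labelled WT and for Psmb10 in the library labelled KO. The naive-like cluster 1, led by Dapl1, Lef1 and Tcf7, had the lowest level of 9 members in each library. Tap1 had 369 and 292 CPM in cluster 9 against 104 and 113 in cluster 1, and H2-K1 had 2459 and 2352 against 1188 and 1246. The cycling cluster 6, led by Hist1h2ap and Ube2c, and the Cxcr6, Lag3 and Prf1 cluster 2 lay between for Tap1, at 167 to 212 CPM.

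Among the 4 TAM/Mono clusters, cluster 0 (led by Dmkn, Il1b and Gbp2) had the highest level of 7 members in both libraries. For Psmb9 and Nlrc5 its interval overlapped that of another cluster in both. The Psmb10 level of cluster 0 was 360.3 and 338 CPM, against 174 and 124 in cluster 3, which was led by Cxcl3 and Inhba. Cluster 3 had the highest B2m (7353 and 7309 CPM) and the lowest Psmb8 (524 and 441). The C1q macrophage-like cluster 10, led by Ccl8 and C1qc, had the highest H2-K1 (1221 and 1019 CPM) and the lowest Tap1 (117 and 96.3) and Tap2 (57.2 and 46.1).

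Among DCs, the mature-like cluster 12, led by Ccl22, Fscn1 and Il4i1, was above the Cd209a cluster 8 in 8 of 10 members in the library labelled WT and 9 of 10 in the library labelled KO. The intervals were apart for 3 of these in the library labelled WT (H2-K1, H2-D1 and B2m) and for 7 in the library labelled KO. The share of all genes higher in cluster 12 was not computed, so these counts describe the members only. B2m had 6111 and 6129 CPM in cluster 12 against 4540 and 3590.3 in cluster 8. Psmb10 went the other way, with intervals apart only in the library labelled KO, at 259 and 149 CPM in cluster 12 and 325 and 212 in cluster 8. The unnamed cluster 7 had 1970 and 1899 CPM of H2-K1 and 31.5 and 35.04 CPM of Nlrc5.

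**Figure D3:**
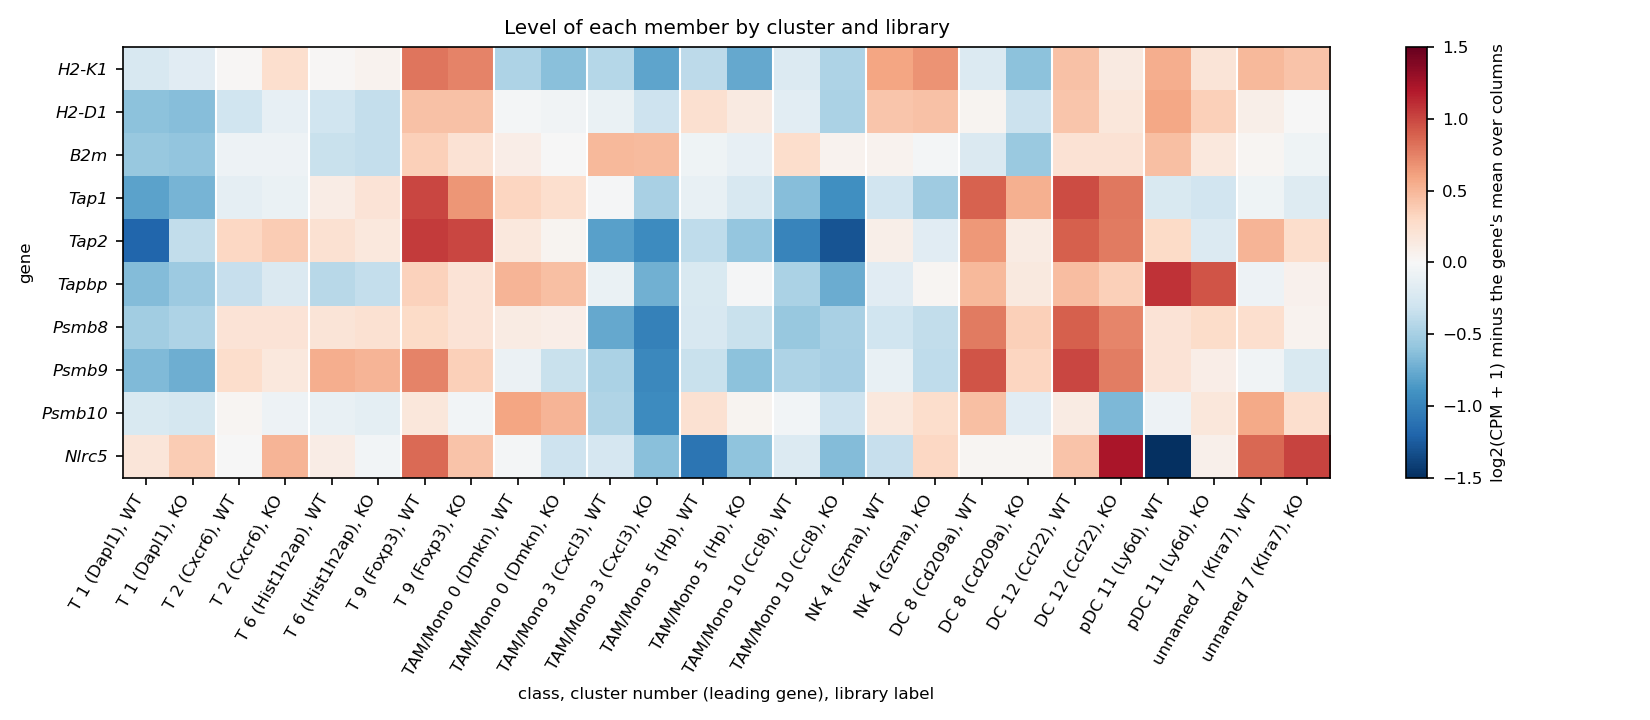
Colour gives the log2(CPM + 1) of each member (rows) in each cluster and library (columns, clusters with at least 25 cells in each library) minus the gene's mean over the columns, from -1.5 to 1.5. The regulatory-like cluster 9 (Foxp3) is red in nearly every row and cluster 1 (Dapl1) is blue in most, and the dark Nlrc5 square of pDCs labelled WT rests on 1 UMI.

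Over 23 cluster-by-library units of at least 50 cells, the levels of the 45 pairs of members had a median Pearson correlation of 0.45 (a description: units share libraries and depth). Psmb8 and Psmb9 were closest (0.89), followed by Tap2 with Psmb8 (0.82) and Tap1 with Tap2 (0.81). Tap1 and Psmb9, whose start regions overlap, had 0.80. B2m stood apart: all 5 pairs with a correlation below 0 contained it, the lowest with Psmb8 (-0.28). Among 6888 genes with at least 500 UMIs, the 8 outside the gene lists of this report whose levels were most like the members' mean were 3830406C13Rik (0.88), Vps54 (0.80), Stx6 (0.79), Pkp3 (0.79), Lypla2 (0.79), Lin37 (0.78), Snw1 (0.77) and Pigx (0.77).

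The libraries were then compared class by class, as the log2 ratio of the library labelled KO over the library labelled WT, to ask whether the pathway differed between the Maoa genotypes. DCs gave the largest difference of the 5 classes. In DCs 9 of 10 members had a lower level in the library labelled KO, where 61.1% of the 5424 genes counted (100 or more UMIs in DCs over both libraries) did. The median log2 ratio of the members was -0.37, against -0.07 over all these genes, whose quartiles were -0.27 and 0.11. The differences were modest in size: 1 of 10 members, Psmb10, was lower past 1.5-fold, where 6.54% of all genes were. None was higher past 1.5-fold, where 2.64% were. Psmb10 was not past it relative to the median of all genes (-0.55) or with mitochondrial and ribosomal genes left out of the total (-0.56). Other members were lower past it elsewhere: H2-K1 without possible doublets (-0.60) and Tap2 with marker gates (-0.73). Psmb9 was so in thinned cells (-0.61) and with equal weight for each cell (-0.59).

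Psmb10 had the largest difference in DCs, with a log2 ratio of -0.62 (-0.77 to -0.47) from 648 and 889 UMIs. Psmb9 followed with -0.51 (-0.62 to -0.41), Tap2 with -0.47 (-0.66 to -0.28) and H2-K1 with -0.43 (-0.50 to -0.37). Psmb8 (-0.38), H2-D1 (-0.37), B2m (-0.32), Tapbp (-0.27) and Tap1 (-0.23) had intervals that also lay below 0. With marker gates, which held only 27 and 89 DCs, H2-K1 had -0.30, H2-D1 -0.21, Tap1 -0.50 and Tap2 -0.73. Without possible doublets H2-K1 had -0.60 and Tap1 -0.39, and at resolution 1.2 H2-K1 had -0.52. Nlrc5 had 0.06 (-0.50 to 0.66) from 38 and 84 UMIs, too few to tell a difference of this size.

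In single DCs thinned to 3000 UMIs each, the medians of H2-K1 and B2m and the shares of cells with Psmb9 and Psmb10 were lower in the library labelled KO. H2-K1 had 0 to 21 UMIs a cell with a median of 4 in the library labelled WT, and 0 to 15 with a median of 3 in the library labelled KO. B2m had 2 to 35 with a median of 14, and 2 to 54 with a median of 11, so its highest cell was in the library labelled KO. Psmb9 was seen in 80.0% of DCs (72.4 to 86.3) and in 60.1% (54.5 to 65.5), and Psmb10 in 57.9% (49.2 to 66.1) and 43.3% (37.8 to 48.9). Without thinning, at median depths of 13780 and 13118 UMIs, Psmb9 was seen in 99.3% and 94.4% of DCs and Psmb10 in 94.3% and 86.3%. No class in the sort lacks these genes, so no background share could be set beside these values. The single cells of the libraries overlapped widely.

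**Figure D4:**
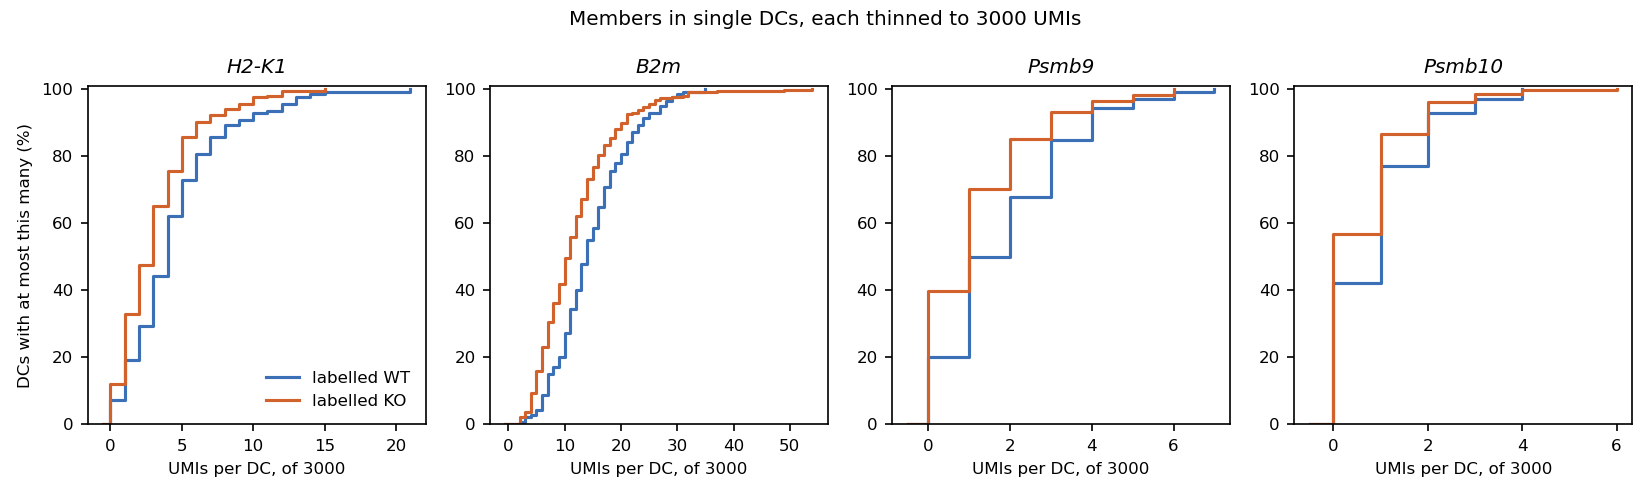
Cumulative share of DCs (%, vertical axis) with at most the given number of UMIs of 4 members (horizontal axis), each cell thinned to 3000 UMIs, 140 DCs labelled WT and 321 labelled KO. The curve of the library labelled KO lies above and left over most of the range, with medians of 3 against 4 UMIs for H2-K1 and 11 against 14 for B2m.

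Within DCs both clusters of at least 50 cells were compared. In the Cd209a cluster 8 all 9 members with at least 100 UMIs were below 0, where 62.8% of the 4561 genes counted there were, with a median of -0.42 against -0.09 over all these genes. Psmb9 had -0.61 (-0.74 to -0.49) there, and Nlrc5, not counted, had 17.3 CPM in both libraries. In the mature-like cluster 12 8 of 9 were below 0, where 55.5% of 1085 genes were, with a median of -0.19 against -0.04, B2m had 0.00 (-0.07 to 0.08) and Psmb10 -0.80 (-1.24 to -0.36). A clustering with 20 principal components, chosen for this after seeing the data, separated a further group of DCs led by Cd24a, Cst3 and Xcr1, the last a chemokine receptor of cross-presenting DCs. In its 24 and 82 cells 8 of 9 counted members were below 0, where 60.2% of 2068 genes were, with a median of -0.29 against -0.08, Psmb10 at -0.63 (-0.94 to -0.30) and Tap1 at -0.01 (-0.28 to 0.28). Cluster 8 had held 17 and 58 of these cells among its 103 and 251. In the Cd209a group that this clustering left, 81 and 173 cells, all 9 counted members were below 0, where 56.2% of 3622 genes were, with a median of -0.39 against -0.04. There Psmb9 had 533 and 296 CPM, a log2 ratio of -0.85 (-1.01 to -0.69). Its mature-like group, 29 and 47 cells, was close to cluster 12, with 8 of 9 below 0, where 55.3% of 1112 genes were.

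The neighbouring gene lists in DCs divided. Of 9 class Ib and other class I heavy chains, 6 had at least 100 UMIs, all 6 had a log2 ratio below 0 and 3 were lower past 1.5-fold. These were H2-Q7 with 318 and 177 CPM (-0.85, -0.998 to -0.697), H2-Q6 with 84.3 and 49.4 (-0.77, -1.06 to -0.48) and H2-T22 with 229.8 and 141 (-0.70, -0.87 to -0.53). Reads of these genes may be split with close copies: 6.08% of 90-base windows in the last 500 bases of H2-Q7, 10.9% of H2-Q6 and 26.5% of H2-T22 occurred in another gene. Of 12 regulators 9 were counted and 6 were below 0. Socs1, an inhibitor of interferon signalling, was lower past 1.5-fold with 64.4 and 41.5 CPM (-0.64, -0.96 to -0.30).

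All 7 peptide loading and trimming genes were below 0 in DCs, with a median of -0.19 and none past 1.5-fold. The constitutive proteasome subunits had a median of -0.05, with Psmb5 at -0.05 (-0.21 to 0.11), Psmb6 at 0.07 (-0.06 to 0.21) and Psmb7 at -0.23 (-0.39 to -0.05). The MHC class II genes, which present peptides to CD4 T cells, had a median of 0.04, with 1 of 7 below 0 and none past 1.5-fold. H2-Aa had 10405 and 10659 CPM in DCs and Cd74 27414 and 28704. Ciita, the class II transactivator, was the gene below 0, with 107 and 87.5 CPM (-0.29, -0.52 to -0.04). H2-DMa and H2-DMb1, which encode the chains of the class II peptide exchange factor, had 0.21 (0.14 to 0.28) and 0.15 (0.08 to 0.23).

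Markers of other cell types in the same DCs were also compared. The 12 measured T cell markers summed to 742 and 632 CPM and the 22 TAM/Mono markers to 3232 and 3083, all detected in both libraries. The 9 neutrophil markers summed to 113 and 11 CPM, with 8 and 7 detected and Ngp at 0 in both, and the 7 B cell markers to 5.21 and 21.3, with Pax5 at 0 in both. Possible doublets, cells with at least 3 Cd3 UMIs and at least 5 myeloid UMIs, were 38 of 140 and 67 of 321 DCs, and without them the median log2 ratio in DCs was -0.40. The part of neutrophil and B cell RNA in the result was not tested.

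In TAM/Mono cells the same direction was seen at a smaller size. Of 10 members 9 had a lower level in the library labelled KO, where 40.8% of the 8332 genes counted did. The median log2 ratio was -0.14 against 0.06 over all genes, and was -0.05 with 7 of 10 below 0 in thinned cells and -0.08 with 20 principal components. None was past 1.5-fold, where 4.15% of all genes were higher and 4.75% lower. H2-K1 had -0.25 (-0.29 to -0.21), B2m -0.19 (-0.21 to -0.18), Psmb9 -0.19 (-0.28 to -0.11) and Tap1 -0.18 (-0.28 to -0.08). The value of Tap1 was -0.10 with 20 principal components and -0.05 in thinned cells, and that of B2m -0.08 with clusters set to 1 mix. Psmb8 alone was above 0, at 0.05 (0.01 to 0.10), but was at -0.07 with clusters set to 1 mix and at -0.0014 relative to the median of all genes. In the same cells the 22 TAM/Mono markers summed to 22984 and 30175 CPM, the 9 neutrophil markers to 567 and 194, with 9 and 8 detected and Ngp at 0 in the library labelled KO, and the 12 T cell markers to 354 and 215, all detected. Possible doublets were 145 of 969 and 67 of 832 cells, and without them 9 of 10 members were still below 0. The part of neutrophil and T cell RNA in the TAM/Mono values was not tested beyond that.

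The TAM/Mono clusters were unequal. In the Cxcl3 and Inhba cluster 3 (360 and 139 cells) all 9 members with at least 100 UMIs were below 0, where 56.5% of the 4063 genes counted there were, with a median of -0.37 against -0.06 over these genes. There Tapbp had -0.62 (-0.87 to -0.38), Psmb9 -0.50 (-0.75 to -0.26) and Tap1 -0.47 (-0.74 to -0.21), while B2m had -0.01 (-0.04 to 0.03). In the Il1b and Gbp2 cluster 0 all 10 were below 0, where 56.9% of 5421 genes were, with a median of -0.10 against -0.04. In the C1q cluster 10 8 of 9 were, where 37.1% of 5227 genes were, with -0.27 against 0.08. In cluster 5, led by Hp, Serpinb10 and Tppp3 (149 and 246 cells), 8 of 9 were below 0, where 52.5% of 3365 genes were, with a median of -0.12 against -0.02. Tapbp was above 0 in cluster 5, with 203 and 236 CPM (0.21, -0.01 to 0.45), and Nlrc5 had 9 and 20 UMIs, or 7.35 and 10.8 CPM.

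Of the class Ib list, 8 genes were counted in TAM/Mono cells, 7 were below 0 and 2 were lower past 1.5-fold, H2-Q6 with 37.1 and 16.9 CPM (-1.14, -1.41 to -0.87) and H2-Q7 with 184 and 96.2 (-0.94, -1.05 to -0.82). Of 11 regulators counted, Ifngr1, a chain of the interferon gamma receptor, was higher with 149.9 and 250.2 CPM (0.74, 0.65 to 0.83), and Socs1 was lower with 47.9 and 30.9 (-0.63, -0.84 to -0.42). The 7 loading and trimming genes were all below 0 (median -0.13), as were the 3 constitutive subunits (median -0.12). Class II differed here from its pattern in DCs, with a median of -0.22, 4 of 7 below 0 and none past 1.5-fold.

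In T cells the direction of the members depended on which cells were summed and how. Of 10 members 6 were below 0, where 59.1% of the 8359 genes counted were, and the median log2 ratio was -0.06 against -0.06 over all genes. The count below 0 was 2 at resolution 0.4 and with 20 principal components, 4 with clusters set to 1 mix or with mitochondrial and ribosomal genes left out of the total, 8 in thinned cells, 9 without possible doublets and 10 with cells chosen by marker gates. None was past 1.5-fold, where 4.41% of all genes were higher and 5.46% lower. H2-K1 was at 0.08 (0.04 to 0.11), but at -0.08 without the possible doublets, at -0.03 with marker gates and at -0.02 with equal weight for each cell. Possible doublets were 290 and 137 T cells in the libraries labelled WT and KO. Their rule counts UMIs and so depends on depth, and the median T cell held 11099.5 and 5291 UMIs. The part of depth in this change was not tested. Psmb9 had the lowest ratio at -0.29 (-0.36 to -0.22), which was -0.10 at resolution 0.4 and with 20 principal components and -0.15 with clusters set to 1 mix. The T cell clusters make up different shares of the libraries, with cluster 1 holding 156 and 413 cells and cluster 2 350 and 178, and with clusters set to 1 mix the median was 0.02.

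Within T cell clusters, H2-K1 in the Cxcr6 and Lag3 cluster 2 had 1422 and 1673 CPM, a log2 ratio of 0.23 (0.17 to 0.30). Tap2 in the naive-like cluster 1 had 49.5 and 88.3 CPM, from 46 and 190 UMIs (0.82, 0.36 to 1.33). In the regulatory-like cluster 9 all 9 members with at least 100 UMIs were below 0, where 47.9% of the 2601 genes counted there were, with a median of -0.13 against 0.01 over these genes. Among them were Psmb9 at -0.39 (-0.58 to -0.20) and Tap1 at -0.34 (-0.56 to -0.12). In the naive-like cluster 1, 4 of 9 counted members were below 0, where 42.4% of genes were, in cluster 2 3 of 10, where 53.5% were, and in the cycling cluster 6 6 of 10, where 51.1% were. In the unnamed cluster 7 it was 8 of 9, where 55.9% were, with a median of -0.13. No gene of the wider lists was past 1.5-fold in T cells: 7 class Ib genes were counted (3 below 0), 7 loading and trimming genes (5 below 0), 3 constitutive subunits (all below 0), 12 regulators (2 below 0) and 6 class II genes (none below 0).

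In NK cells, of the 9 members with at least 100 UMIs 5 were below 0, where 49.2% of the 2595 genes counted were. The median over all 10 members was -0.03, against 0.01 over all genes, and none of the 9 was past 1.5-fold, where 3.24% of genes were higher and 3.93% lower. H2-K1 had 0.08 (0.0025 to 0.16), but -0.04 in thinned cells, and Psmb9 -0.27 (-0.51 to -0.03). Nlrc5 had only 15 and 26 UMIs and was not counted. The 9 neutrophil markers summed to 122 and 17.9 CPM in NK cells, with 7 and 4 detected, and their part was not tested. No gene of the wider lists was past 1.5-fold among the 5 class Ib, 6 loading and trimming, 3 constitutive, 7 regulator and 5 class II genes counted in NK cells.

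In pDCs, with 48 and 70 cells, 7 of 9 counted members were below 0, where 50.5% of the 1181 genes counted were. The median over all 10 members was -0.13 against -0.00 over all genes (-0.26 with marker gates and -0.21 in thinned cells), and none of the 9 was past 1.5-fold, where 3.22% were higher and 3.73% lower. H2-K1 had -0.35 (-0.49 to -0.21), B2m -0.29 (-0.37 to -0.21) and H2-D1 -0.22 (-0.32 to -0.13). For the remaining 6 counted members the interval held 0. The 13 NK cell markers summed to 412 and 53.5 CPM in pDCs, with 11 and 10 detected and Eomes at 0 in both, and the 9 neutrophil markers to 167 and 5.94, with 6 and 3 detected and Cxcr2 and Ngp at 0 in both. Their part in the pDC values was not tested. Of 4 class Ib genes counted all were below 0, and 2 were lower past 1.5-fold, H2-Q7 with 857 and 479.5 CPM (-0.84, -1.08 to -0.59) and H2-Q4 with 269 and 168 (-0.68, -1.11 to -0.25). Canx, the chaperone calnexin, had 207 and 133 CPM (-0.64, -1.14 to -0.15), the only one of 5 loading and trimming genes past 1.5-fold. None of 3 constitutive subunits, 2 regulators and 6 class II genes was past 1.5-fold in pDCs.

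**Figure D5:**
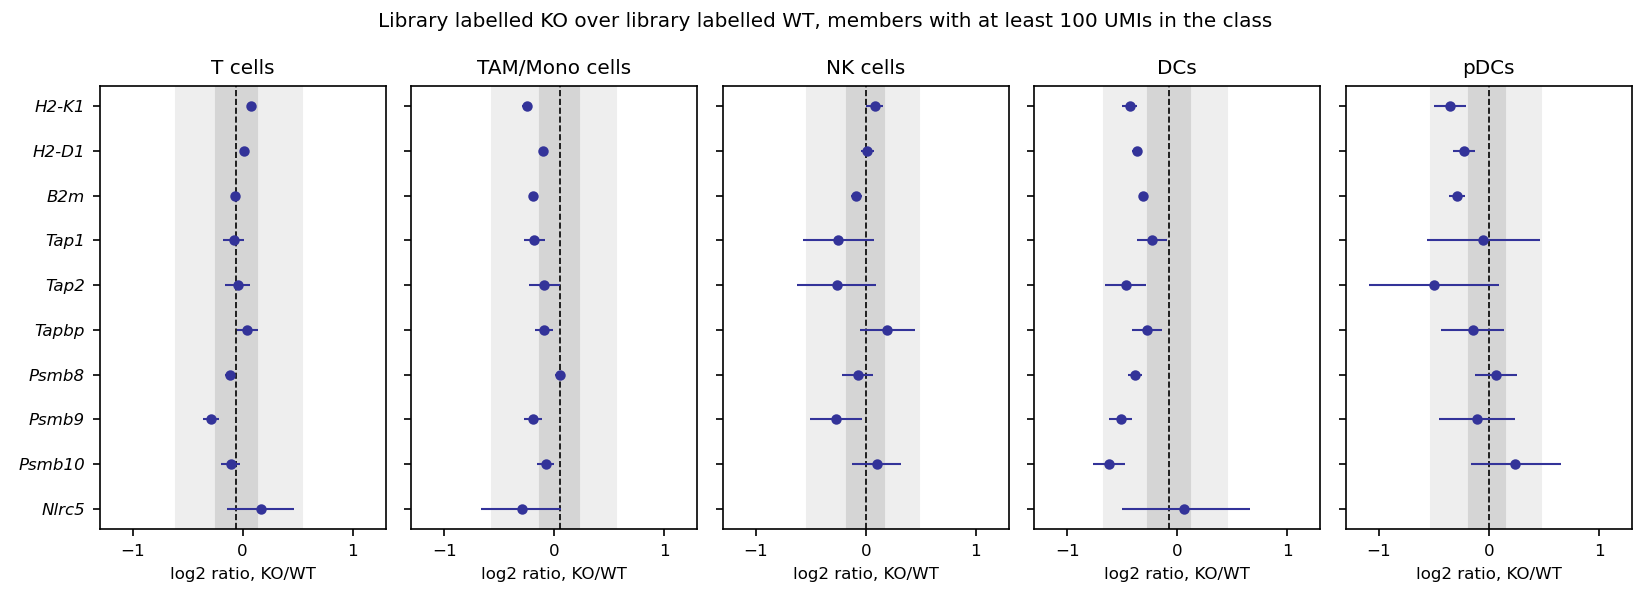
Log2 ratio of CPM, library labelled KO over library labelled WT, of each member with at least 100 UMIs in the class, with exact 95% intervals for counting error. The dashed line is the median of all genes counted in the class, and the grey bands hold their middle 50% and 90%. In DCs 9 of 10 points lie left of the line, and in T cells the points spread on both sides of it.

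RNA set free from broken cells adds UMIs to every droplet, by an amount that differs from gene to gene. H2-Aa, which T and NK cells hardly make, had 203 and 204 CPM in T cells and 206 and 216 in NK cells, against 10405 and 10659 in DCs. The T cells also held possible doublets. The part of free RNA in the members' levels was not tested. In T cells the 5 erythroid markers summed to 1355 and 2475 CPM and the 9 neutrophil markers to 219.9 and 46.7 CPM, and their part in the T cell values was not tested either.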

How the data were processed

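Tumor-infiltrating immune cells of 1 Maoa WT and 1 Maoa KO library were read from 1 table. The submitters' processing notes name Cell Ranger and mm10, and the versions are not given in the sources used here. The deposited table is described as raw counts but holds values on a natural log scale, which the authors made as ln(1 + UMIs scaled to 10000 per cell). UMIs were recovered by dividing expm1 of each value by the smallest nonzero expm1 of its cell, and 100% of the nonzero values in all 5022 cells came out whole (tolerance 0.01). The 2 libraries were told apart by the barcode ending, as the labels state it.

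Cells were clustered with Seurat 5.3.0 (599 variable genes, depth regressed, 13 principal components, resolution 0.8). Clusters were named by the marker list of which the most members, as a share, were detected, with 3 or more markers needed. Detected meant in 10% or more of the cluster's cells and at a higher level per 1000000 UMIs than the mean over clusters. A cluster stayed unnamed where another class had more markers among the 10 leading genes. No doublet caller was run. UMIs were summed by class and library and given per 1000000 UMIs (CPM), with exact Poisson, conditional binomial and Clopper-Pearson intervals (scipy 1.17.1), and 0.5 UMIs were added to each sum in a log2 ratio. Genes with at least 100 UMIs in a class over both libraries were counted. Total UMIs were 28801253 in the library labelled WT and 23702018 in the library labelled KO.

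The intervals were tried on counts simulated with counting error alone, where exact intervals hold by construction. The trial could not test spread between cells, pools or libraries. With 1 library per genotype no p-value was computed. The members, the gene lists and the rules were chosen with earlier results of these data known. Named were the 10 members, listed genes past 1.5-fold (some markers and 1 regulator are not reported here), and the 8 other genes most correlated with the members. Psmb5, Psmb6, Psmb7 and the class II genes were named as references after their values were seen.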

Additional observations from a re-analysis of the deposited data

Results flagged for a closer look

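For H2-K1 and Psmb8 the difference between the libraries pointed in opposite directions in different classes, each beyond its counting error. The log2 ratio of H2-K1 was 0.08 (0.04 to 0.11) in T cells and 0.08 (0.0025 to 0.16) in NK cells but -0.43 (-0.50 to -0.37) in DCs, so the T cell and NK cell ratios exceeded that of DCs by 0.51 and 0.52. The log2 ratio of Psmb8 was 0.05 (0.01 to 0.10) in TAM/Mono cells and -0.38 (-0.45 to -0.32) in DCs, a gap of 0.44. Without possible doublets the H2-K1 ratio was -0.08 in T cells and -0.60 in DCs, and with marker gates it was -0.03 and -0.30. The NK cell ratio of H2-K1 was -0.04 in thinned cells and 0.0052 at resolution 1.2, and with clusters set to 1 mix the TAM/Mono ratio of Psmb8 was -0.07. These gaps compare 2 libraries and not the genotypes, and with 1 library per genotype the difference was not tested.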

How the results depend on the processing

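Each median log2 ratio of the 10 members was recomputed under 13 other settings and 2 more chosen after seeing the data. In DCs it was below 0 under all 15, between -0.40 and -0.30. Some of these settings left every DC value unchanged and so are no check on it. They kept members among the variable genes, counted cluster 7 with T cells, or took cells with at least 3000 UMIs. The median lay outside the counting interval of the reported DC value (-0.43 to -0.32) under 2 settings. It was -0.31 with mitochondrial and ribosomal genes left out of the total and -0.30 relative to the median of all genes. In TAM/Mono cells it stayed below 0 and moved from -0.139 to -0.0754 with 20 principal components and to -0.0512 in thinned cells. In T cells the sign was not stable: the value was 0.0843 at resolution 0.4 and 0.0815 with 20 principal components, where the naive-like cells were unnamed, 0.0193 with clusters set to 1 mix, 0.0204 without mitochondrial and ribosomal genes, and -0.15 without possible doublets. The NK cell median stayed within its counting interval (-0.13 to 0.07) and the pDC median within its wide one (-0.44 to 0.19), although it moved from -0.13 to -0.26 with marker gates and -0.21 in thinned cells. The number of members highest in the same class in both libraries was 6 to 8, with 0.5 UMIs added to each sum. No paired analysis was possible because each genotype has 1 library. For the same reason no replicate could be left out. Counting error was bounded more tightly in the library labelled WT for T cells and TAM/Mono cells and in the library labelled KO, which held more UMIs of them, for DCs, NK cells and pDCs. In NK cells and pDCs Nlrc5 was too sparse to compare.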
